A study of Drosophila melanogaster with 4 samples.

Results

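The immediate early and activity-response genes described here are *Hr38*, *sr*, *kay*, *Jra* and *puc*, 5 of the 14240 genes counted in single cells of the *Drosophila* central nervous system. They were chosen by symbol and are followed across neural stem cells (NSCs), neurons split by transmitter, and the other cells sorted with them. The larval sample consisted of dissociated brains at 24 h after larval hatching (24 h ALH, a time when NSCs reactivate), and the embryonic sample of dissociated stage 17 tissue labelled as brain, from a time when NSCs are quiescent (qNSCs). How brain was separated from the rest of the embryo is not given in the sources used here. All cells carried *wor-GAL4* driving *UAS-mCD8-GFP* and were sorted for GFP, so that each group is limited to cells with GFP from an NSC driver and to whatever else passed the gate. Each stage had 2 libraries, labelled as biological replicates, made with 10x 3′ chemistry v3 except stage 17 replicate 1 (v2).

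*Hr38* encodes the only fly nuclear receptor of the NR4A family, and *sr* (*stripe*) encodes a zinc finger transcription factor of the EGR family that also specifies tendon cells. Transcripts of both accumulate in fly neurons after they fire, and both are used as markers of recent activity. *kay* encodes the fly Fos protein and *Jra* the fly Jun protein, which pair to form AP-1, the transcription factor at the end of the Jun N-terminal kinase (JNK) cascade. *puc* encodes a phosphatase that inactivates JNK. It is itself induced by JNK through AP-1 and is widely used as a readout of the cascade.

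On the dm6 assembly (annotation BDGP6.54), *Hr38* (FBgn0014859) spans 2L:20683462-20714588 on the minus strand with 7 annotated exons. The other genes lie on the plus strand, *sr* (FBgn0003499) at 3R:18090803-18135583 with 9 exons, *kay* (FBgn0001297) at 3R:29765995-29794113 with 7, *Jra* (FBgn0001291) at 2R:10096480-10098556 with 4 and *puc* (FBgn0243512) at 3R:8105332-8122294 with 5. Genes on the opposite strand overlap *Hr38* (*CG2617* and lncRNAs), *kay* (*fig* and a lncRNA), *Jra* (*RpLP0-like*) and *puc* (a lncRNA), and 2 tRNA genes lie within *sr* on its own strand. Whether strand was used in counting was not given in the sources used here, so reads of overlapping genes may be included in these counts.

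After filtering, 3567 of 4152 called cells were kept, 923 and 1015 at 24 h ALH and 409 and 1220 at stage 17. The libraries differed in depth: the median number of unique molecular identifiers (UMIs, one per captured transcript molecule) per kept cell was 48895 and 17791 at 24 h ALH, against 3812 and 4862 at stage 17. Of the barcodes kept, 4 were shared between 24 h ALH replicate 1 and stage 17 replicate 2, and 1 between 24 h ALH replicate 2 and stage 17 replicate 2. Clustering, done without the 5 genes, gave 901 NSC-like cells in 3 clusters and 1145 neuron-like cells in 5 clusters. NSC-like cells numbered 513 and 336 at 24 h ALH but only 28 and 24 at stage 17, and neuron-like cells 188 and 279 at 24 h ALH and 216 and 462 at stage 17. Among the rest were a cluster led by the cell death genes *skl* and *rpr* (316 cells), a cluster led by the Notch target *Hey* with *E(spl)m6-BFM* and *retn* (178 cells), 174 cuticle-like, 57 glia-like and 29 muscle-like cells, and 767 cells left unnamed, of which stage 17 replicate 2 held 556. A cluster among the unnamed cells (415, of which 375 were of stage 17 replicate 2) had the protease genes *Jon65Aiv* and *epsilonTry* among its leading genes, which are not markers of the labelled tissue. The neuronal gene *nSyb* was nevertheless found in 95.4% of its cells. Another unnamed cluster, led by *Tehao* (173 cells, 169 of them of stage 17 replicate 2), had *nSyb* in 99.4%. The 10 NSC markers (*dpn* and *wor* among them) summed to between 2277 and 4714 UMIs per 1000000 UMIs of the same cells (CPM) in NSC-like cells of the 4 libraries, against 50.1 to 174 CPM in neuron-like cells. In stage 17 replicate 2, 11 neuron markers (*nSyb* among them) summed to 21678 CPM in unnamed and 27154 CPM in neuron-like cells. Cells with neuron markers were thus also left outside the neuron class. At 24 h ALH the NSC markers summed to 1671 and 1574 CPM in unnamed cells, against 2515 and 2277 CPM in NSC-like cells. An unnamed cluster led by *IM14* (155 cells) matched the progenitor markers best and had *dpn* in 48.4% of its cells. Cells with NSC markers were thus left outside the NSC class too.

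Most UMIs of *Hr38* and *sr* were in neuron-like cells at both stages. In neuron-like cells *Hr38* reached 249 and 425 CPM at 24 h ALH, against 190.1 and 92.1 CPM at stage 17. *sr* reached 253 and 382 CPM at 24 h ALH, against 93.8 and 70.1 CPM at stage 17. In both cases the 24 h ALH libraries lay above the stage 17 libraries without overlap. Neuron-like cells held 72.1% and 79.3% of all *Hr38* UMIs at 24 h ALH and 93.4% and 79.4% at stage 17.

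The stage difference in neurons passed the test for *sr*, with a log2 fold change (24 h ALH over stage 17) of 1.87 ± 0.29 (SE, adjusted p = 0.0126, edgeR quasi-likelihood test on UMIs summed per library, 2 libraries per stage). For *Hr38* it was 1.20 ± 0.41 and missed the threshold (adjusted p = 0.0779). *Jra* fell by 1.20 ± 0.24 on the log2 scale (adjusted p = 0.0203), with 23.8 and 30.2 CPM at 24 h ALH and 66.2 and 51.0 CPM at stage 17. The remaining members had log2 fold changes of -0.71 ± 0.23 for *kay* (adjusted p = 0.0691) and -0.57 ± 0.24 for *puc* (adjusted p = 0.121). Thus 1 member was called higher and 1 lower, in a comparison that called 31.2% of the 7209 genes tested, 18.7% higher and 12.5% lower. The *sr* call was lost without stage 17 replicate 1 (2.02, adjusted p = 0.0627), stage 17 replicate 2 (1.72, adjusted p = 0.110) or 24 h ALH replicate 2 (1.53, adjusted p = 0.0846). The *Jra* call was lost without 24 h ALH replicate 1 (-1.01, adjusted p = 0.275) or replicate 2 (-1.39, adjusted p = 0.134), in cells thinned to 1000 UMIs (-0.74, adjusted p = 0.415) and with classes set by marker UMIs (NSCs as cells with *dpn* and *wor* UMIs, neurons as cells with *nSyb* but no *dpn* UMIs, -0.92, adjusted p = 0.0903). *Hr38* passed the threshold with DESeq2 (0.0150), without the filter on low counts (0.0441) and in thinned cells (0.0173).

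The higher *Hr38* and *sr* levels came with a larger share of neurons in which a transcript was captured. To compare libraries of unequal depth, 1000 UMIs were drawn from each cell. At this depth *Hr38* was seen in 18.1% of 188 and 29.4% of 279 neuron-like cells at 24 h ALH, and in 11.4% of 210 and 7.36% of 462 at stage 17. The exact 95% binomial intervals, which cover counting error only, ran from 12.9% to 24.3% and from 24.1% to 35.1% at 24 h ALH, and from 7.46% to 16.5% and from 5.15% to 10.1% at stage 17. *sr* was seen in 19.7% and 25.1% of neurons at 24 h ALH and in 7.14% and 3.90% at stage 17. In the same draw *Hr38* was seen in 0 of 513 NSC-like cells of 24 h ALH replicate 1 (interval up to 0.717%, and 3 counts would be 0.585%) and in 2 of 336 of replicate 2, which limits only what a draw of 1000 UMIs shows: with all their UMIs, 17 of the 513 and 14 of the 336 cells had *Hr38*. Before the draw, the median cell held 16416 and 11382 UMIs in neurons and 72243 and 61239 UMIs in NSCs at 24 h ALH, and 4437 and 10864 UMIs in neurons and 2494 and 3110 UMIs in NSCs at stage 17. Without thinning, 142 of 188 and 191 of 279 neurons had an *Hr38* UMI at 24 h ALH, and 80 of 216 and 170 of 462 at stage 17.

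**Figure D1:**
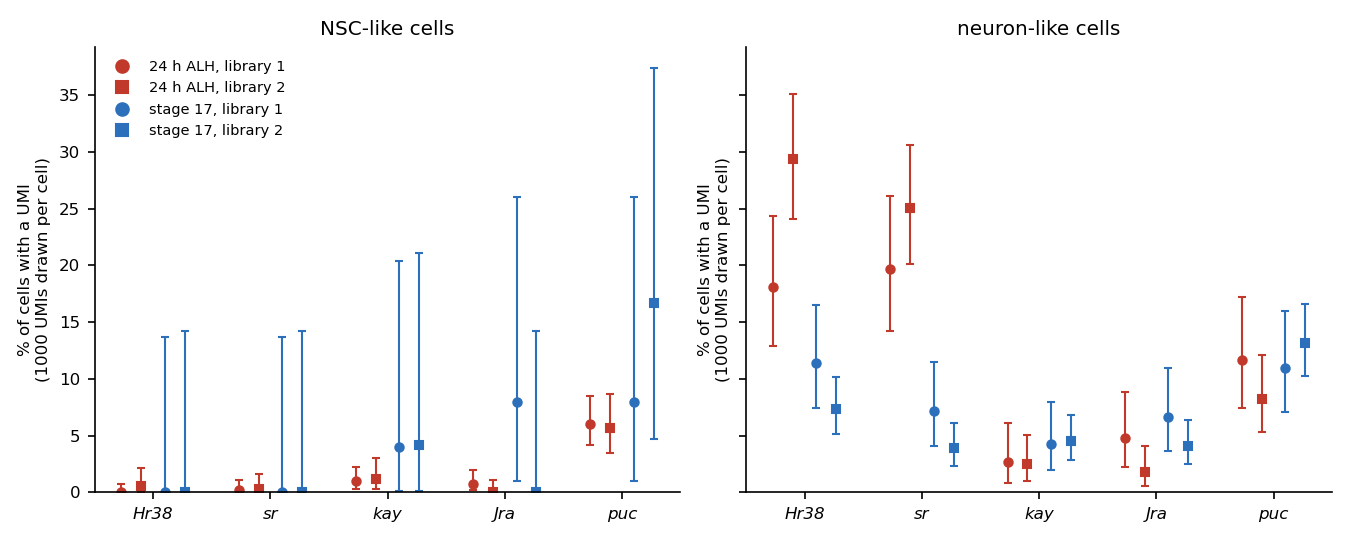
Percent of cells with at least 1 UMI of each gene when 1000 UMIs are drawn per cell (y axis), for the 4 libraries, in NSC-like (left) and neuron-like cells (right); bars are exact 95% binomial intervals. *Hr38* and *sr* are seen in 18.1% to 29.4% of neurons at 24 h ALH and 3.90% to 11.4% at stage 17, while the intervals of the 25 and 24 stage 17 NSC-like cells are wide.

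Within neurons the transcripts were unevenly spread over cells. The tenth of neuron-like cells with the most *Hr38* held 40.1% and 45.7% of its UMIs at 24 h ALH and 56.4% and 67.7% at stage 17, and the highest cell had 29 and 64 UMIs at 24 h ALH and 13 and 71 at stage 17. *Hr38* and *sr* tended to be captured in the same cells. With 2000 UMIs drawn per cell, *sr* was seen in 46.7% and 62.4% of neurons with *Hr38* at 24 h ALH, against 21.1% and 21.2% of neurons without it. At stage 17 it was seen in 23.4% and 13.8% of neurons with *Hr38*, against 4.58% and 9.57% of those without. The direction was the same in all 4 libraries, and it is given as a description with no test, since cells of 1 library share its depth and free RNA. At the same depth *kay* was seen in 1.67% and 10.1% of neurons with *Hr38* at 24 h ALH, against 4.69% and 7.65% of those without. At stage 17 it was seen in 21.3% and 16.9%, against 11.1% and 8.56%, so that 3 of 4 libraries had the direction seen for *sr*. With 1000 UMIs drawn no library had it. *kay* was then seen in 0% and 2.44% of neurons with *Hr38* at 24 h ALH, against 3.25% and 2.54% of those without. At stage 17 the values were 4.17% and 2.94%, against 4.30% and 4.67%. The 1000 UMI draw left 0, 2, 1 and 1 cells with both genes.

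NSC-like cells had little *Hr38* or *sr*. At 24 h ALH *Hr38* stood at 1.14 and 2.97 CPM in NSC-like cells, against 249 and 425 CPM in neuron-like cells, and *sr* at 1.30 and 2.28 CPM, against 253 and 382 CPM. The log2 fold changes (NSC-like over neuron-like) were -7.29 ± 0.19 for *Hr38* and -7.34 ± 0.16 for *sr* (SE, adjusted p = 1.75e-20 each, library as a block). *kay*, *Jra* and *puc* were lower by much less, with log2 fold changes of -1.16 ± 0.14, -1.18 ± 0.16 and -1.31 ± 0.13 and adjusted p of 9.48e-08, 5.40e-07 and 2.75e-09. All 5 members were therefore called lower in NSCs at 24 h ALH, where 77.2% of the 7817 genes tested were called, 36.5% lower and 40.8% higher. The calls of *Hr38*, *sr* and *puc* were kept under every alternative, but with marker UMIs the values of *Hr38* (-3.69) and *sr* (-3.70) were much smaller. That of *kay* was lost without 24 h ALH replicate 2 (0.0809), in thinned cells (0.136) and with marker UMIs (0.0707), and that of *Jra* without 24 h ALH replicate 1 (0.0537).

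At stage 17 the same comparison called 3 members lower, with 44.8% of genes called, 26.5% lower and 18.2% higher. *sr* had a log2 fold change of -4.10 ± 0.61 (adjusted p = 5.27e-06), *Hr38* of -2.30 ± 0.39 (adjusted p = 3.11e-05) and *Jra* of -1.46 ± 0.44 (adjusted p = 0.00897). The stage 17 NSCs held 1 UMI of *sr* in each library. *kay* (-0.24 ± 0.34, adjusted p = 0.615) and *puc* (-0.30 ± 0.25, adjusted p = 0.341) did not pass. The *Hr38* call was kept under every alternative, with values of -1.78 without stage 17 replicate 1, -3.13 without stage 17 replicate 2 and -1.39 with marker UMIs. *kay* stood at 57.0 and 74.6 CPM in stage 17 NSCs, against 71.2 and 56.5 CPM in stage 17 neurons, so that the 2 libraries ordered the classes differently. The *Jra* call was lost without stage 17 replicate 2 (adjusted p = 0.174), in thinned cells (0.439) and with marker UMIs (0.161), and the *sr* call with marker UMIs (-0.78, adjusted p = 0.0869).

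**Figure D2:**
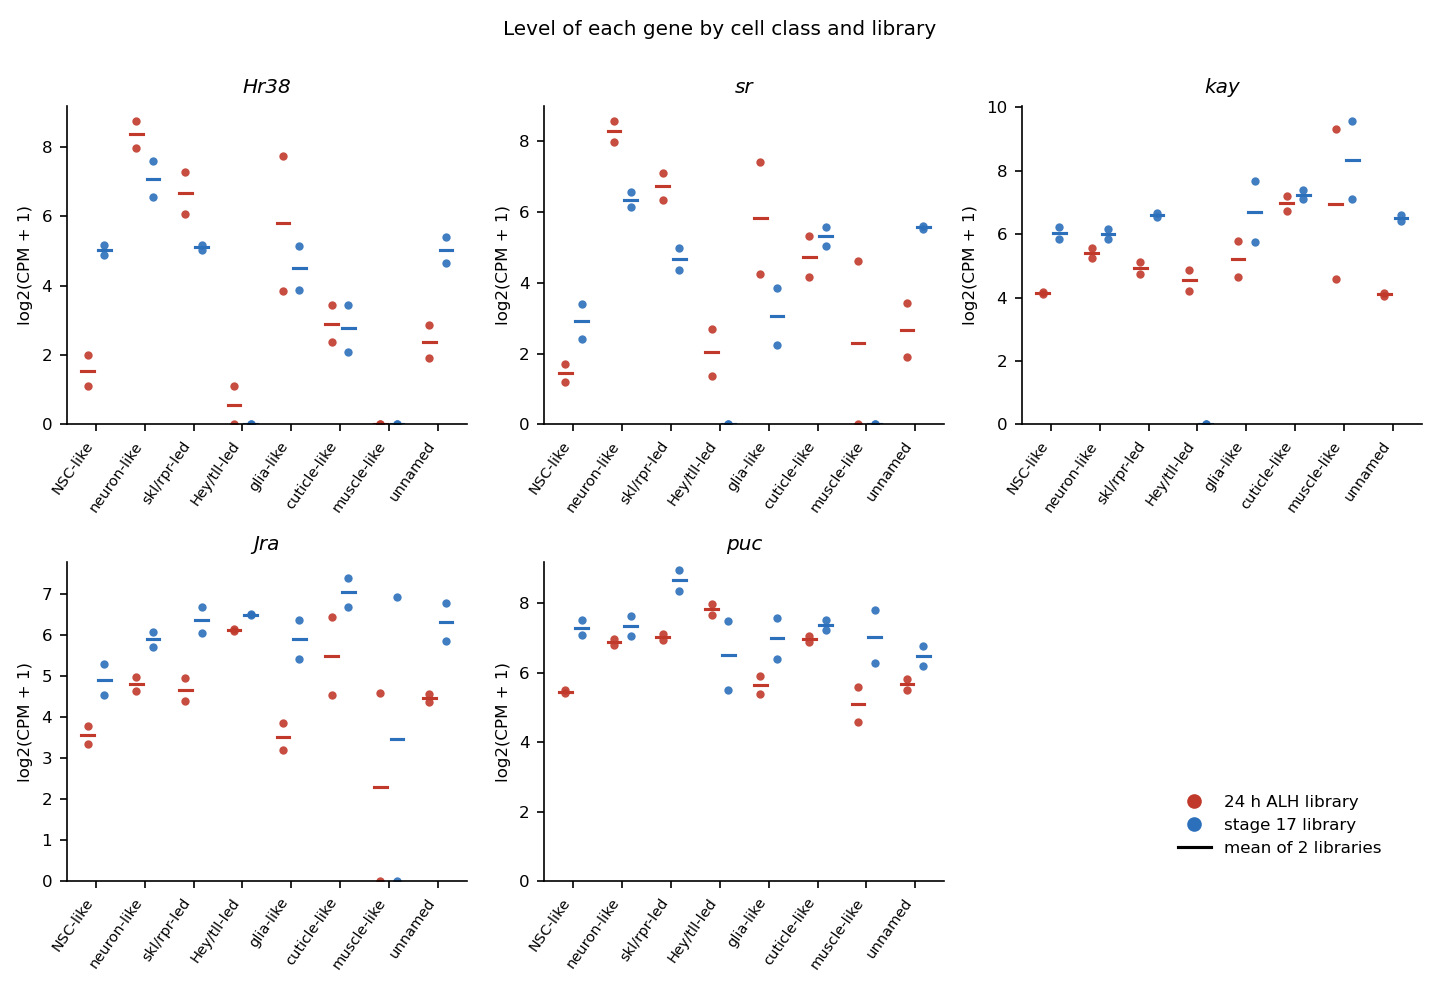
Level of each gene as log2(CPM + 1) of UMIs summed per library and class (y axis), for NSC-like and neuron-like cells, the clusters led by *skl* and *rpr* and by *Hey* and *tll*, and the other classes; points are libraries and bars the mean of the log values. *Hr38* and *sr* are highest in neuron-like cells at 24 h ALH, while *kay*, *Jra* and *puc* are spread over most classes. Muscle-like and glia-like cells, and the *Hey*-led cluster at stage 17, rest on few cells.

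Of the 5 genes, *Hr38*, *kay* and *puc* were called lower in NSC-like cells at 24 h ALH than at stage 17. *puc* stood at 41.2 and 44.5 CPM in NSC-like cells at 24 h ALH, against 133 and 179.9 CPM at stage 17. *kay* stood at 16.4 and 17.0 CPM at 24 h ALH, against 57.0 and 74.6 CPM at stage 17. For each of the 5 genes both 24 h ALH libraries lay below both stage 17 libraries. *puc* fell by 1.72 ± 0.27 on the log2 scale (adjusted p = 0.00162) and *kay* by 1.82 ± 0.36 (adjusted p = 0.00472). *Hr38* stood at 1.14 and 2.97 CPM at 24 h ALH, against 28.5 and 35.1 CPM at stage 17, and fell by 3.80 ± 0.83 (adjusted p = 0.00759). *Jra* stood at 9.05 and 12.6 CPM at 24 h ALH, against 38.0 and 21.9 CPM at stage 17, with a log2 fold change of -1.11 ± 0.60 that missed the threshold (adjusted p = 0.189). *sr* (-1.55 ± 1.29, adjusted p = 0.390) rested on 1 UMI in each stage 17 library. Of the 5 members, 3 were called lower at 24 h ALH, in a comparison that called 31.6% of the 7228 genes tested, 15.4% lower and 16.1% higher, with a median log2 fold change over all genes of 0.24.

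The NSC clusters made up different parts of the class at each stage. The cluster led by *CG4250* held 181 of 513 and 109 of 336 NSC-like cells at 24 h ALH and 20 of 28 and 11 of 24 at stage 17. Within it *puc* stood at 58.1 and 56.0 CPM at 24 h ALH and 193 and 194 CPM at stage 17 (13 and 26 UMIs), and in the cluster led by *CycE* and *PCNA* at 32.8 and 29.9 CPM at 24 h ALH and 29.5 and 160.1 CPM at stage 17 (1 and 15 UMIs).

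The stage 17 side of this comparison is thin. Its 52 NSC-like cells held 55 UMIs of *puc*, 23 of *kay*, 11 of *Hr38*, 9 of *Jra* and 2 of *sr*. The 11 *Hr38* UMIs came from 2 cells of each stage 17 library, and a single cell of replicate 2 held 7 of them. The ratio of stage 17 to 24 h ALH by UMIs alone was 3.90 for *puc* (exact 95% interval for counting error 2.93 to 5.09), 4.15 for *kay* (2.62 to 6.26), 18.4 for *Hr38* (8.92 to 34.4), 2.62 for *Jra* (1.19 to 5.001) and 3.64 for *sr* (0.434 to 13.5). Without stage 17 replicate 2 the calls of *Hr38* (-3.35, adjusted p = 0.159), *kay* (-1.30, adjusted p = 0.155) and *puc* (-1.16, adjusted p = 0.0511) were lost. The *kay* call was also lost without 24 h ALH replicate 1 (0.114) or replicate 2 (0.0887), the *puc* call without 24 h ALH replicate 1 (0.0709) and in thinned cells (-0.85, adjusted p = 0.482), and the *Hr38* call with marker UMIs (-1.28, adjusted p = 0.126), which in turn called *Jra* (-1.59, adjusted p = 0.00903).

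At 24 h ALH too, the NSC transcripts of *Hr38* and *sr* sat in few cells. *Hr38* UMIs were found in 17 of 513 and 14 of 336 NSC-like cells, and the highest cell held 17 of 42 and 26 of 60 of them. The small NSC cluster led by *erm*, *pnt* and *Dll*, genes of type II NSC lineages, held 17 and 49 of these UMIs and stood at 14.4 and 25.9 CPM of *Hr38* and 18.6 and 18.5 CPM of *sr*. These levels rested on few of its 24 and 43 cells. In replicate 1 a single cell held all 17 *Hr38* UMIs of the cluster, and a single cell all 22 *sr* UMIs. In replicate 2 the highest cell held 26 of 49 *Hr38* UMIs and 21 of 35 *sr* UMIs. In the NSC cluster led by the S phase genes *CycE* and *PCNA*, *Hr38* stood at 0.616 and 0.530 CPM. *puc*, in contrast, was found in 441 of 513 and 274 of 336 NSC-like cells, and its level was 32.8 and 29.9 CPM in the *CycE* and *PCNA* cluster, 58.1 and 56.0 CPM in the cluster led by *CG4250* and 88.9 and 116 CPM in the *erm* cluster.

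Neuron marker UMIs were found in NSC-like cells to different extents. Whether they came from neurons or from the NSCs themselves was not tested. The 11 neuron markers summed to 262 and 284 CPM in NSC-like cells at 24 h ALH, which was 1.27% and 1.29% of their level in neuron-like cells, and to 2281 and 3057 CPM at stage 17, which was 10.0% and 11.3%. *nSyb*, the neuronal synaptobrevin, stood at 0.419% and 0.444% of its neuronal level at 24 h ALH and at 6.16% and 11.3% at stage 17. By the same measure *Hr38* stood at 0.458% and 0.699% at 24 h ALH and at 15.0% and 38.1% at stage 17, and *sr* at 0.515% and 0.597% at 24 h ALH and 10.1% and 6.26% at stage 17. The shares of *Hr38* and *sr* at 24 h ALH were thus below that of the neuron marker list. *kay* (44.6% and 36.8% at 24 h ALH, 80.1% and 132% at stage 17), *Jra* (38.0% and 41.8%, then 57.5% and 43.0%) and *puc* (33.4% and 40.3%, then 67.9% and 136%) were far above it. The part of RNA from neurons in the NSC values of *Hr38* and *sr* was not tested either.

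**Figure D3:**
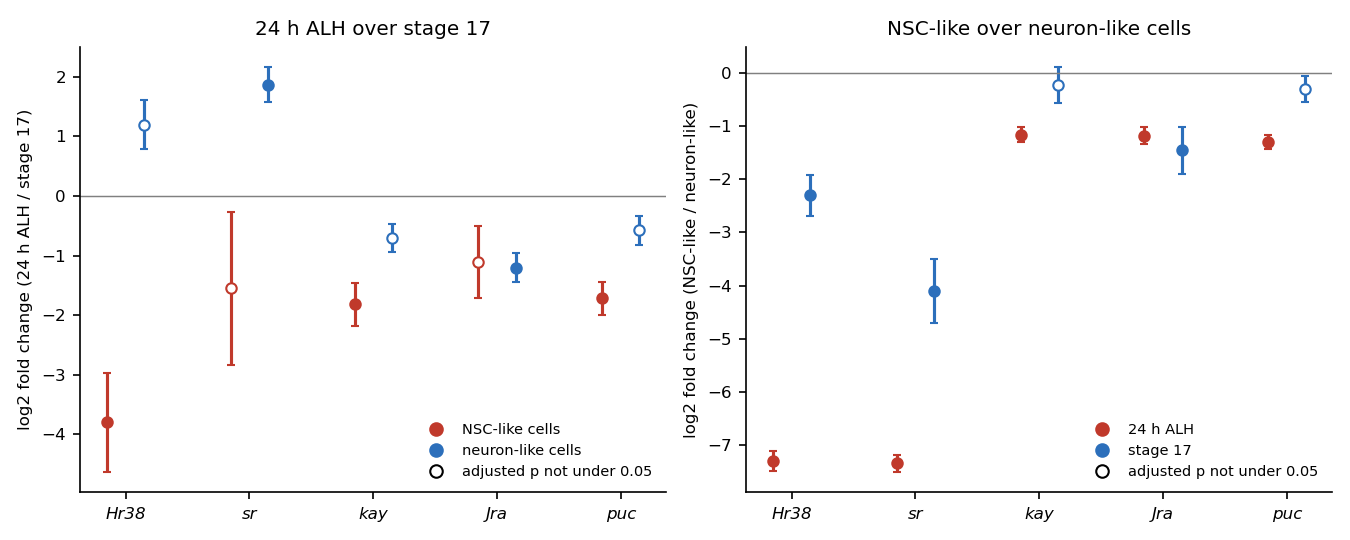
Log2 fold changes ± SE from the edgeR fits (y axes), of 24 h ALH over stage 17 within NSC-like and neuron-like cells (left), and of NSC-like over neuron-like cells at each stage (right); open symbols did not pass an adjusted p of 0.05. *Hr38* and *sr* have positive stage values in neurons (1.20 and 1.87) and negative ones in NSCs (-3.80 and -1.55).

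The difference between the stage changes of NSCs and of neurons was tested as an interaction. It was -4.98 ± 0.75 on the log2 scale for *Hr38* (adjusted p = 4.97e-05) and -1.0 ± 0.30 for *puc* (adjusted p = 0.0223), in both cases with NSCs changing in the negative direction relative to neurons. *sr* (-3.24 ± 1.43, adjusted p = 0.133), *kay* (-0.92 ± 0.40, adjusted p = 0.124) and *Jra* (0.28 ± 0.53, adjusted p = 0.789) did not pass. Of the members 2 of 5 were called negative, and none positive, in a test that called 15.3% of the 7817 genes, 9.48% negative and 5.86% positive. Of the genes called, 38.2% were positive. With DESeq2 that share was 13.7%, and the median over all genes was -0.25 in place of 0.09. The *Hr38* interaction was lost only in thinned cells (1.11 ± 3.86, adjusted p = 0.971), where no *Hr38* UMI was left in stage 17 NSCs, and the *puc* interaction was called under 4 of 10 alternatives.

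Of 3 transmitter classes of neurons, cholinergic cells had the highest *Hr38* CPM. Classes were set by the UMIs of transmitter genes in each cell, which gave 190 glutamatergic, 225 GABAergic and 520 cholinergic neurons. *Hr38* stood at 155 and 274 CPM in glutamatergic, 199 and 382 CPM in GABAergic and 278 and 512 CPM in cholinergic neurons at 24 h ALH. At stage 17 it stood at 147.7 and 52.0 CPM in glutamatergic, 94.8 and 69.6 CPM in GABAergic and 296 and 126 CPM in cholinergic neurons. Of the 3 classes, cholinergic neurons were highest within each of the 4 libraries, while neurons of no class stood at 316 and 432 CPM at 24 h ALH and 169 and 67.8 CPM at stage 17. The share of cells with *Hr38* in a draw of 1000 UMIs did not have this order: at 24 h ALH it was 11.5% and 34.4% in glutamatergic, 21.1% and 27.1% in GABAergic and 19.2% and 28.4% in cholinergic neurons, and at stage 17 it was 8.11% and 6.25%, 9.62% and 10.7%, and 16.4% and 9.0% in the same classes. The tests between transmitter classes took both stages together, with library as a block. *Hr38* was lower in GABAergic than in cholinergic neurons (log2 fold change -0.73 ± 0.16, adjusted p = 0.0184) and lower in glutamatergic than in cholinergic neurons (-0.95 ± 0.17, adjusted p = 0.00177), with no called difference between glutamatergic and GABAergic neurons (-0.21 ± 0.17, adjusted p = 0.546).

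*sr* had the same order of means at 24 h ALH, 239 ± 109 CPM in glutamatergic, 246 ± 58.7 CPM in GABAergic and 369 ± 131 CPM in cholinergic neurons (SD, n = 2), but none of its differences passed the test (adjusted p = 0.216 to 0.718). In each transmitter class both 24 h ALH libraries were above both stage 17 libraries for *sr*. For *Hr38* this held in GABAergic and glutamatergic neurons, while cholinergic neurons of stage 17 replicate 1 (296 CPM) lay above those of 24 h ALH replicate 1 (278 CPM). No test was run within a transmitter class, or between transmitter classes at a single stage.

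*Jra* had another order. It stood at 41.8 and 56.7 CPM in glutamatergic, 22.8 and 17.3 CPM in GABAergic and 19.6 and 24.0 CPM in cholinergic neurons at 24 h ALH, and at 94.0 and 126 CPM in glutamatergic, 40.1 and 29.4 CPM in GABAergic and 63.3 and 36.6 CPM in cholinergic neurons at stage 17. *Jra* was higher in glutamatergic than in cholinergic neurons (1.34 ± 0.19, adjusted p = 4.31e-04) and than in GABAergic neurons (1.61 ± 0.22, adjusted p = 5.10e-04). *kay* ran in the same direction without passing (0.51 ± 0.16, adjusted p = 0.0535, and 0.64 ± 0.18, adjusted p = 0.0530). *puc* stood at 146 and 92.6 CPM in glutamatergic, 72.9 and 77.8 CPM in GABAergic and 138 and 133 CPM in cholinergic neurons at 24 h ALH, with no called difference (adjusted p = 0.528 to 0.821). In GABAergic over cholinergic neurons 1 of 5 members was called, lower, where 3.8% of all genes were called, 1.65% lower and 2.15% higher. In glutamatergic over cholinergic neurons 1 member was called higher and 1 lower, where 13.5% of genes were called, 8.15% higher and 5.36% lower. In glutamatergic over GABAergic neurons 1 of 5 was called, higher, where 5.99% of genes were called, 3.49% higher and 2.5% lower.

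**Figure D4:**
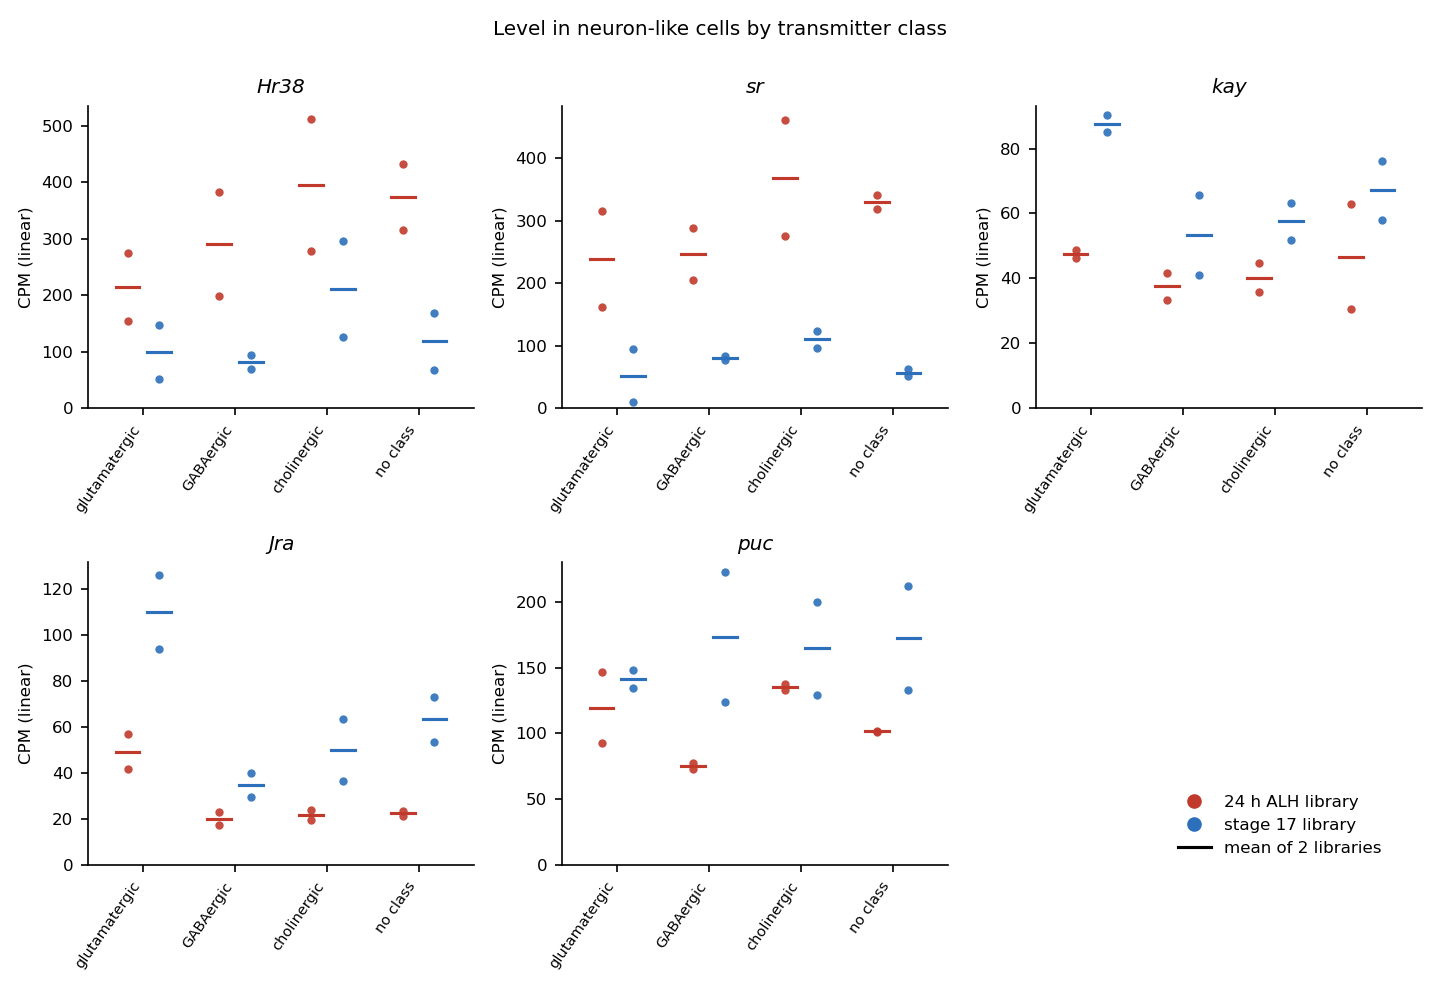
CPM of each gene in neuron-like cells by transmitter class (y axes, linear), with libraries as points and the mean of 2 libraries as bars. Of the 3 classes, *Hr38* is highest in cholinergic neurons in every library and *Jra* in glutamatergic neurons (94.0 and 126 CPM at stage 17). The no class group had too few transmitter UMIs or a mixture.

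*Jra* and *kay* had their highest means among the neuron-like clusters in one led by *CG12672*, *CG14274* and *twit* (105 cells). There *Jra* stood at 46.4 and 78.9 CPM at 24 h ALH and 187 and 129 CPM at stage 17, and *kay* at 53.5 and 85.5 CPM at 24 h ALH and 196 and 119.5 CPM at stage 17. Without this cluster, *Jra* kept its direction but not its calls: in glutamatergic over cholinergic neurons it was 0.81 (adjusted p = 0.139) and over GABAergic neurons 1.07 (adjusted p = 0.102), and the *kay* values turned to -0.29 and -0.17. Leaving it out kept the *Hr38* values at -0.75 and -0.96 while their adjusted p were 0.339 and 0.301, in a fit that called 124 genes between glutamatergic and cholinergic neurons in place of 736. The calls of *Hr38* were also lost in thinned cells (-0.02, adjusted p = 0.984 for GABAergic and -0.34, adjusted p = 0.612 for glutamatergic over cholinergic neurons) and with marker UMIs (0.222 and 0.0683), and that of GABAergic neurons without stage 17 replicate 2 (0.0663). With marker UMIs the *Jra* call over cholinergic neurons was lost as well (0.0989).

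The neuron-like clusters also differed in the other members. The largest, led by the neuropeptide genes *Dh44* and *Nplp1* (480 cells), had 324 and 621 CPM of *Hr38* and 355 and 590.0 CPM of *sr* at 24 h ALH, and 225 and 118 CPM of *Hr38* and 136 and 95.4 CPM of *sr* at stage 17. In the *twit* cluster *sr* stood at 42.8 and 135 CPM at 24 h ALH and 44.5 and 29.9 CPM at stage 17. *puc* was highest in the cluster led by *prt*, a transporter gene of the vesicular monoamine transporter family, with 268 and 241 CPM at 24 h ALH and 548 (10 UMIs in 5 cells) and 242 CPM at stage 17. These cluster levels are a description, since the clusters were defined on the same cells.

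**Figure D5:**
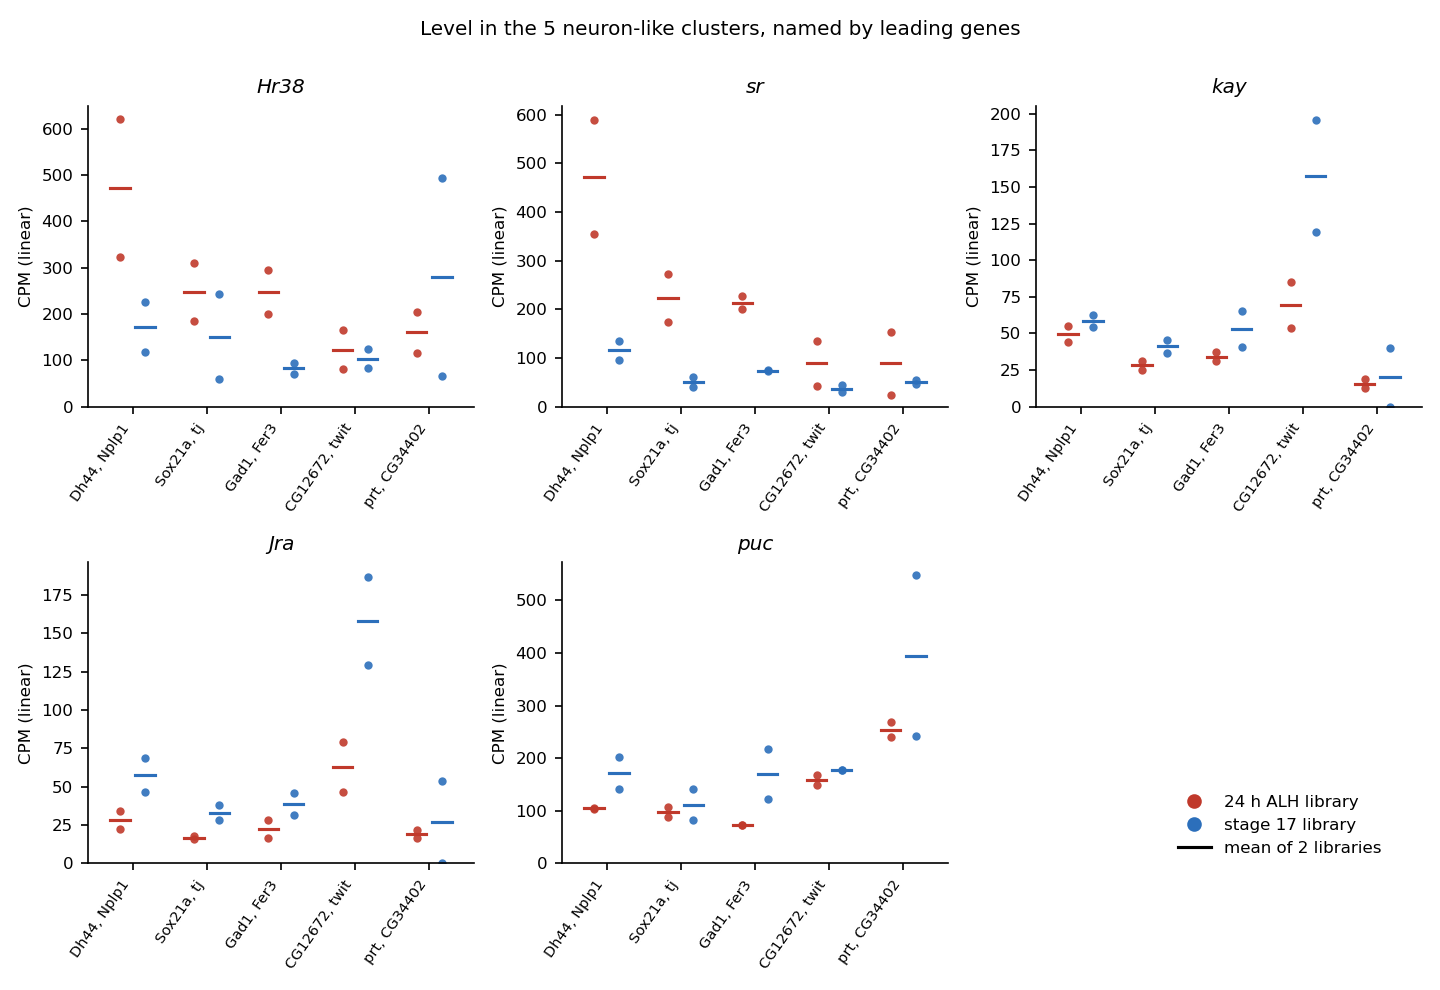
CPM of each gene in the 5 neuron-like clusters named by leading genes (y axes, linear), with libraries as points and the mean of 2 libraries as bars. *Jra* and *kay* are highest in the cluster led by *CG12672* and *twit*, *puc* in the cluster led by *prt*, and *Hr38* and *sr* at 24 h ALH in the cluster led by *Dh44* and *Nplp1*.

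Outside the NSC-like and neuron-like clusters the members separated further. *puc* was high in the cluster led by *skl* and *rpr*, with 121 and 136 CPM at 24 h ALH and 494 and 325 CPM at stage 17, and in the *Hey* cluster, with 251 and 201 CPM at 24 h ALH (the cluster had 5 cells at stage 17). Of the large classes at stage 17, the *skl* and *rpr* cluster thus had the highest *puc* in both libraries. This cluster matched a list of progenitor markers best, and it held *dpn* in 34.2% and *nSyb* in 82.0% of its cells. The same cluster had 65.1 and 153 CPM of *Hr38* at 24 h ALH, against 35.0 and 31.6 CPM at stage 17. The 24 h ALH values came from few cells. Taken with the *Hey* cluster, replicate 2 had 316 *Hr38* UMIs in 27 of 217 cells, 72 of them in 1 cell. Of these UMIs the *skl* and *rpr* cluster held 313. Replicate 1 had 297 UMIs in 38 of 118 cells. *Hr38* was nearly missing from the *Hey* cluster (0 and 3 UMIs at 24 h ALH), in which *Jra* stood at 69.1 and 67.4 CPM.

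Of the named classes taken whole, muscle-like and cuticle-like cells had the highest mean *kay* CPM at each stage. It stood at 106 and 147 CPM at 24 h ALH and 167 and 136 CPM at stage 17 in cuticle-like cells, and at 23.1 and 639.6 CPM and 762 and 137 CPM in muscle-like cells, which rested on 1, 27, 10 and 8 UMIs. *sr* was present in cuticle-like cells at 39.0 and 16.8 CPM at 24 h ALH and 32.1 and 46.9 CPM at stage 17, and *Hr38* at 9.74 and 4.21 CPM at 24 h ALH and 3.21 and 9.95 CPM at stage 17. No *Hr38* UMI was found in the 29 muscle-like cells. In glia-like cells *Hr38* stood at 13.5 and 211 CPM at 24 h ALH (3 and 26 UMIs, the 26 in 3 of 14 cells) and at 13.5 and 34.1 CPM at stage 17, so that 1 library set its mean.

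The 767 unnamed cells had between 2.74 and 40.8 CPM of *Hr38*, 2.74 and 48.1 CPM of *sr*, 15.5 and 96.2 CPM of *kay*, 19.4 and 108 CPM of *Jra* and 44.2 and 108 CPM of *puc*, in each case with both 24 h ALH libraries below both stage 17 libraries. Different clusters made up these cells at each stage. One led by *IM14* held 67 of 72 and 81 of 117 at 24 h ALH. Those led by *CG13545* and *Tehao* held 375 and 169 of the 556 of stage 17 replicate 2. Within the *CG13545* cluster *sr* stood at 37.9 CPM in 24 h ALH replicate 2, against 106 and 34.8 CPM at stage 17. The part of cluster make-up in the order of the stages was not tested.

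Ordered by mean CPM at 24 h ALH, with muscle-like, *Hey*-led and unnamed cells left aside, *Hr38* ran from neuron-like cells (337 ± 125, SD, n = 2) through glia-like cells (112 ± 139) and the *skl* and *rpr* cluster (109 ± 61.9) to cuticle-like cells (6.97 ± 3.92) and NSC-like cells (2.06 ± 1.30), and only the glia-like cells and the *skl* and *rpr* cluster overlapped. *sr* ran from neuron-like cells (317 ± 90.8) through the *skl* and *rpr* cluster (109 ± 40.7), glia-like (94.0 ± 108) and cuticle-like cells (27.9 ± 15.7) to NSC-like cells (1.79 ± 0.69), with glia-like values overlapping those of both neighbours. *kay* stood at 16.7 ± 0.44 CPM in NSC-like and 41.6 ± 6.78 CPM in neuron-like cells at 24 h ALH, and at 65.8 ± 12.4 CPM in NSC-like and 63.9 ± 10.4 CPM in neuron-like cells at stage 17, where the ranges overlapped. *Jra* at stage 17 ran from cuticle-like (134 ± 46.5) through the *skl* and *rpr* cluster (83.0 ± 25.6), glia-like (61.5 ± 28.0) and neuron-like cells (58.6 ± 10.8) to NSC-like cells (29.97 ± 11.4), with each of these neighbours overlapping except the last pair. *puc* at stage 17 ran from the *skl* and *rpr* cluster (409 ± 119.8) to cuticle-like (164 ± 23.4), neuron-like (164 ± 45.3), NSC-like (156 ± 33.1) and glia-like cells (136 ± 75.2), and all but the highest overlapped. Levels are compared here within a gene only.

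Over 29 sums of a class and a library, which share libraries and, for transmitter classes, cells, the genes whose log2(CPM + 1) followed a member most closely were *Ric* (r = 0.94), *CG43324* and *Pal2* for *Hr38*, and *CG7368* (r = 0.86), *eEF1alpha2* and *CG3009* for *sr*. They were *CG32266* (r = 0.87), *CG9336* and *stck* for *kay*, *Nrg* (r = 0.83), *Tsp42Eg* and *kay* itself (r = 0.79) for *Jra*, and *Klp98A* (r = 0.82), *CG5830* and *CG10737* for *puc*. No member of the *Hr38* and *sr* pair was among the 3 nearest genes of the other.

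Upstream of AP-1, 15 of 17 core genes of the JNK cascade could be tested in NSCs, and 1 rose and 2 fell at 24 h ALH. Among all genes 16.1% rose and 15.4% fell. *Rac1*, a small GTPase upstream of the kinases, rose by 1.02 (log2, adjusted p = 0.00747). *egr*, the TNF ligand of the cascade, fell by 2.57 (adjusted p = 0.00128) and the kinase gene *Tak1* fell by 1.71 (adjusted p = 0.00561). The list's median log2 fold change was 0.41, against 0.24 over all genes. In neurons, where 31.2% of all genes were called, none of 12 tested genes of this list was called (median -0.23, against 0.00 over all genes). *egr* was also the JNK gene with the largest excess in NSCs over neurons, with 9.92 and 10.2 CPM in NSC-like and 1.35 and 0.265 CPM in neuron-like cells at 24 h ALH (log2 fold change 3.76, adjusted p = 3.82e-07) and a value of 4.79 at stage 17 (adjusted p = 8.24e-07). The adaptor gene *Traf4* was higher in NSCs as well (3.005 at 24 h ALH, adjusted p = 6.03e-08, and 2.49 at stage 17, adjusted p = 0.0380). Its stage 17 value rested on few UMIs, with 19.0 and 13.2 CPM in stage 17 NSCs. *wnd*, a kinase gene known from axon injury, was lower in NSCs at 24 h ALH (-2.43, adjusted p = 4.42e-13) and at stage 17 (-3.87, adjusted p = 2.74e-05). In stage 17 NSCs *wnd* stood at 9.50 and 4.39 CPM, the level of 1 UMI in each library. Also lower in NSCs were *bsk*, the fly JNK, at 24 h ALH (-1.48, adjusted p = 2.83e-09) and *Traf6* at stage 17 (-3.15, adjusted p = 0.0140, with 1 UMI in stage 17 NSCs). In all, 5 of 15 were higher and 9 lower in NSCs at 24 h ALH, and 2 higher and 6 lower at stage 17. Of all genes, 40.8% were higher and 36.5% lower at 24 h ALH, and 18.2% higher and 26.5% lower at stage 17. In the interaction 3 of 15 were called, all positive, among them *slpr* (1.33, adjusted p = 0.0200) and *Cdc42* (1.27, adjusted p = 0.00925). This test called 5.86% of all genes positive and 9.48% negative. The only call among transmitter classes was *raw*, which restrains JNK signalling (0.54 in glutamatergic over cholinergic neurons, adjusted p = 0.0482).

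Of the listed outputs of JNK and AP-1 beyond *puc*, 6 of 12 could be tested in each comparison of classes or stages. At 24 h ALH *chic* (profilin, 1.29, adjusted p = 0.00613) and *zip* (non-muscle myosin, 0.75, adjusted p = 0.0460) rose in NSCs, while *Mmp2* (a matrix metalloproteinase, -2.15, adjusted p = 0.0217) and *scyl* (-1.83, adjusted p = 0.00517) fell. In neurons *zip* rose (1.74, adjusted p = 0.0103) and *Mmp2* fell (-1.15, adjusted p = 0.0201). *Mmp2* was lower in NSCs than in neurons at 24 h ALH (-4.64, adjusted p = 8.99e-19) and at stage 17 (-3.79, adjusted p = 2.87e-09). *zip* was higher in NSCs at both stages (0.58, adjusted p = 3.35e-04, and 1.33, adjusted p = 2.16e-04). *Mmp1* was lower in NSCs at 24 h ALH (-1.50, adjusted p = 0.0106), and at stage 17 *scyl* was higher (0.88, adjusted p = 6.44e-04) and *chic* lower (-1.04, adjusted p = 2.37e-04). *chic* was the 1 gene called in the interaction (1.14, adjusted p = 0.00652), where 5.86% of all genes were positive. None of 4 tested was called among transmitter classes. The list's called genes thus moved in both directions. In NSCs 2 rose and 2 fell, where 16.1% of all genes rose and 15.4% fell. The list's median there was -1.99, against 0.24 over all genes. In neurons 1 rose and 1 fell, where 18.7% of all genes rose and 12.5% fell (median -0.71, against 0.00). At 24 h ALH 1 was higher and 2 lower in NSCs than in neurons, and at stage 17, 2 and 2. Of all genes, 40.8% were higher and 36.5% lower at 24 h ALH, and 18.2% and 26.5% at stage 17.

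Of 16 other bZIP, CREB and calcium-responsive regulators, 15 were tested, and in NSCs 5 fell and none rose at 24 h ALH (median 0.04). Among all genes 15.4% fell and 16.1% rose. *CanB*, a regulatory subunit of the calcium-dependent phosphatase calcineurin, fell by 4.46 (adjusted p = 4.22e-04), with 2.66 and 2.97 CPM at 24 h ALH and 38.0 and 92.1 CPM at stage 17. The neuron markers moved with it, at 1.27% and 1.29% of their neuronal level in NSC-like cells at 24 h ALH and 10.0% and 11.3% at stage 17, and their part in it was not tested. *Atf3*, a bZIP factor induced by stress, fell by 3.58 (adjusted p = 4.02e-05), with 20.01 and 15.5 CPM at 24 h ALH and 342 and 206 CPM at stage 17. In neurons, where 12.5% of all genes fell and 18.7% rose, 2 fell, *CanB2* (-1.36, adjusted p = 0.0111) and the calmodulin gene *Cam* (-0.74, adjusted p = 0.0317). Most of this list was lower in NSCs than in neurons, 11 of 15 at each stage (of all genes, 36.5% at 24 h ALH and 26.5% at stage 17), led at 24 h ALH by *CanB* (-7.77, adjusted p = 1.82e-18) and *CanA-14F* (-5.01, adjusted p = 1.26e-16) and at stage 17 by the same genes (-4.13, adjusted p = 1.53e-10, and -3.94, adjusted p = 6.16e-11). *crc*, the fly ATF4, was higher in NSCs at 24 h ALH (1.04, adjusted p = 1.05e-07) and stage 17 (1.51, adjusted p = 1.59e-05), as was *bs*, the serum response factor, at 24 h ALH (0.84, adjusted p = 7.14e-04). The interaction called 3 positive, *CrebA* (3.58, adjusted p = 0.0198, resting on 1 UMI in stage 17 NSCs) and *CanB2* (1.63, adjusted p = 0.00148) among them, and 3 negative, led by *CanB* (-3.64, adjusted p = 1.56e-05) and *Atf3* (-2.66, adjusted p = 8.73e-06). Among all genes it called 5.86% positive and 9.48% negative.

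In the transmitter comparisons this was the list with the most calls. *Mef2*, a transcription factor gene regulated by activity in neurons, was lower in GABAergic (-1.79, adjusted p = 0.00613) and in glutamatergic (-1.34, adjusted p = 0.00974) than in cholinergic neurons. *CanA-14F* had the same order (-0.59, adjusted p = 0.00389, and -0.79, adjusted p = 2.36e-04). *Atf3* was higher in glutamatergic than in cholinergic (1.22, adjusted p = 0.0137) and GABAergic neurons (1.73, adjusted p = 0.00584), the order seen for *Jra*. Of 14 tested, 3 were lower in GABAergic than in cholinergic neurons, where 1.65% of all genes were. In glutamatergic neurons 7 were lower and 1 higher than in cholinergic neurons, where 5.36% of all genes were lower and 8.15% higher.

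Of the 14 genes of the ERK cascade, which also drives immediate early genes, 13 were tested in NSCs, and 1 rose and 3 fell at 24 h ALH (median -0.45). Among all genes 16.1% rose and 15.4% fell. The receptor gene *Egfr* rose (2.74, adjusted p = 0.0328), with 31.6 and 37.7 CPM at 24 h ALH and 0 and 8.77 CPM at stage 17. *rl*, the fly ERK, fell in NSCs (-1.82, adjusted p = 1.20e-04) and in neurons (-1.30, adjusted p = 0.0155), and *csw*, a phosphatase gene of the cascade, fell in NSCs (-1.79, adjusted p = 0.00553). At 24 h ALH, where 40.8% of all genes were higher and 36.5% lower, 4 of 13 were higher in NSCs than in neurons, led by *Egfr* (4.34, adjusted p = 6.10e-13) and the ETS factor gene *pnt* (3.29, adjusted p = 1.66e-10), and 8 were lower, led by *csw* (-4.02, adjusted p = 1.33e-17) and *cic*, a repressor inactivated by ERK (-2.05, adjusted p = 9.33e-11). At stage 17, where 18.2% of all genes were higher and 26.5% lower, *pnt* (2.58, adjusted p = 0.0172) and the inhibitor gene *sty* (2.47, adjusted p = 6.35e-10) were higher, and 3 were lower, led by *aop* (-2.54, adjusted p = 1.15e-04) and *csw* (-2.48, adjusted p = 2.45e-07). *csw* (-1.54, adjusted p = 0.0141) and *sty* (-1.19, adjusted p = 0.00161) were called in the interaction, and none of 11 among transmitter classes. The interaction called 9.48% of all genes negative.

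Of 10 other genes linked to neuronal activity, 7 were tested in NSCs, and 4 fell and none rose at 24 h ALH (median -2.74). Among all genes 15.4% fell and 16.1% rose. *Arc1*, related to the mammalian *Arc*, fell by 5.12 (adjusted p = 4.71e-04), with 0.979 and 1.69 CPM at 24 h ALH and 47.5 and 57.0 CPM at stage 17, and *CG13868* fell by 5.06 (adjusted p = 8.22e-05). These falls too came with the lower neuron marker level of NSC-like cells at 24 h ALH, whose part was not tested. In neurons, where 31.2% of all genes were called, *Arc1* was the only 1 of 8 called, and it fell (-2.54, adjusted p = 0.00842), with 11.6 and 6.89 CPM at 24 h ALH and 46.1 and 52.2 CPM at stage 17, against the direction of *sr*. As for *Hr38* and *sr*, 7 of 8 were lower in NSCs than in neurons at 24 h ALH, where 36.5% of all genes were, led by *CG8910* (-7.45, adjusted p = 1.65e-19) and *CG14186* (-7.06, adjusted p = 5.09e-20), and 6 of 8 at stage 17, where 26.5% were, led by *CG17778* (-4.28, adjusted p = 3.93e-05) and *CG14186* (-2.98, adjusted p = 8.76e-06). *CG17778* stood at 0 and 8.77 CPM in stage 17 NSCs. Of 8 in the interaction 5 were negative, led by *CG8910* (-4.53, adjusted p = 0.0110, with 0 and 17.5 CPM in stage 17 NSCs) and *CG13868* (-4.37, adjusted p = 3.69e-07), and 1 was positive, the coactivator gene *nej* (0.97, adjusted p = 0.0232). Among all genes 9.48% were negative and 5.86% positive. None was called among transmitter classes.

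The 14 listed heat stress genes, which are induced by heat and other insults to cells, summed to 8650 and 9079 CPM in NSC-like cells at 24 h ALH, against 3469 and 3018 CPM at stage 17, and to 6691 and 6887 CPM in neuron-like cells at 24 h ALH, against 6310 and 3024 CPM at stage 17. In NSCs 7 of 12 rose and none fell, where 16.1% of all genes rose and 15.4% fell. Among the 7 were *Hsp70Ab* (4.27, adjusted p = 5.68e-04, with 9.50 and 4.39 CPM at stage 17) and *Hsp27* (2.46, adjusted p = 4.71e-04). In neurons 4 rose, among them *Hsp70Ab* (5.22, adjusted p = 0.00463) and *Hsp27* (1.80, adjusted p = 0.0337), *DnaJ-1* fell (-1.10, adjusted p = 0.0475) and 7 were not called, with a list median of -0.21 against 0.00 over all genes. That comparison called 18.7% of all genes higher and 12.5% lower. Between NSCs and neurons *Hsp83* (1.44, adjusted p = 5.69e-07) and *Hsp27* (0.87, adjusted p = 0.00599) were higher in NSCs at 24 h ALH, and *stv* (-4.04, adjusted p = 2.91e-18) and *Hsp70Ba* (-0.96, adjusted p = 0.0406) were among 3 lower. At stage 17, 6 were lower, led by *stv* (-3.44, adjusted p = 2.35e-07) and *Hsp68* (-2.23, adjusted p = 1.02e-07). Among all genes 40.8% were higher and 36.5% lower in NSCs at 24 h ALH, and 18.2% higher and 26.5% lower at stage 17. In the interaction, where 5.86% of all genes were positive, 4 were, led by *Hsp70Bc* (2.17, adjusted p = 1.04e-04) and *Hsp68* (2.12, adjusted p = 3.78e-05). The *Hsp70* genes are near-identical copies whose reads can be split between them. The part of handling in the stage differences of the members was not tested. Depth and stage cannot be told apart in the unthinned values.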

How the data were processed

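The authors sorted GFP-positive cells and made 10x 3′ libraries, and the deposited files hold raw UMI counts per gene and cell from Cell Ranger (3.0.2 in the file headers, version 3 in the labels) on dm6. Cells were kept if they had between 200 and 6000 genes detected, with no more than 5% of UMIs from mitochondria. Seurat 5.3.0 integrated the 4 libraries (2000 variable genes, 30 dimensions, resolution 0.5, 17 clusters) without the 5 genes and the heat stress and activity lists. A cluster was named when at least 3 markers of a list were present in 25% of its cells and that list, with a positive score, led by 0.5 log2. It stayed unnamed where another list had more markers among its 10 leading genes. The same held for a cluster of low depth with no marker of its list among them. Transmitter classes needed 2 transmitter UMIs, 80% of them of one class. Counts were summed per class and library and tested with edgeR 4.0.16 (TMM, filterByExpr, robust quasi-likelihood test, R 4.3.3) with Benjamini-Hochberg adjustment over all genes tested and a threshold of 0.05. DESeq2 1.42.0, no filter, a replicate block, each library left out, resolution 1.0, stricter transmitter classes (5 UMIs, 90%), classes from marker UMIs and thinned cells were alternatives. Scrublet (scanpy 1.11.5) marked 39 cells (1.09%) as doublets, which stayed in. The tests were also run on simulated counts with the same mean profile for all sums, as a check of the code only. CPM are the summed UMIs of a gene per 1000000 UMIs of the class. A 0 allows up to 3 counts. An exact permutation test of 2 against 2 libraries cannot go below p = 0.333. The p-values rest on the spread between sums of libraries, estimated with information from all genes. In NSCs against neurons, 1 estimate of this spread was shared over both stages. The genes and lists were chosen with earlier results of these data known. All 5 genes and up to 2 called genes per list and direction with the largest fold change were named, and for each of the 5 the 3 genes most correlated over sums of at least 20 cells, taken from genes averaging 10 CPM or more. Named genes of the lists carry no test over a list.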

Additional observations from a re-analysis of the deposited data

Results flagged for a closer look

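The stage change of *Hr38* differed between NSC-like and neuron-like cells, with an interaction of -4.98 on the log2 scale. It is listed because this difference between the classes was itself tested and passed the threshold (adjusted p = 4.97e-05, edgeR). The stage 17 NSC side rests on 11 UMIs in 4 cells, and the part of RNA from neurons in them was not tested.

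The stage change of *puc* also differed between the classes, with an interaction of -1.0 on the log2 scale, and is listed for the same reason. This call was lost without stage 17 replicate 2, without either 24 h ALH replicate, with DESeq2, in thinned cells and with classes from marker UMIs.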

How the results depend on the processing

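Of 19 called results of the 5 genes, 4 kept direction and call under every alternative run, namely *Hr38*, *sr* and *puc* in NSCs against neurons at 24 h ALH and *Hr38* in the same comparison at stage 17, where its value ran from -7.99 in thinned cells, with 0 UMIs left in the NSCs, to -1.39 with marker UMIs. Of 421 alternative values of the genes, 351 kept direction and side of the threshold, 39 lost and 16 gained the call, and 15 changed sign. Depth is a limit: the 52 stage 17 NSCs held few UMIs of each gene. The causes of changed calls were not tested. A replicate block (*Hr38* in neurons 1.21, adjusted p = 0.0455) gave 1838 called genes in NSCs and 2414 in neurons, against 2283 and 2247, but same-numbered libraries did not deviate together (r = -0.00862 and 0.0525). In NSCs against neurons at stage 17, DESeq2 gave a median over all genes of -0.10 on the log2 scale, against -0.29 with edgeR.

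Thinned cells gave 209, 416, 2604, 1587, 93, 63, 114 and 36 called genes, against 2283 for stage in NSCs, 2247 for stage in neurons, 6037 and 3499 for NSCs against neurons at 24 h ALH and stage 17, 1199 for the interaction, 207 for GABAergic against cholinergic, 736 for glutamatergic against cholinergic and 326 for glutamatergic against GABAergic neurons. Marker UMIs moved the counts to 4690 (stage in NSCs), 1930 (NSCs against neurons at stage 17), 126, 415 and 163 (transmitter comparisons in the same order). No filter on low counts gave 316 for GABAergic against cholinergic neurons. Without the *twit* cluster, an alternative chosen after seeing the data as was leaving out doublets, glutamatergic neurons had 124 calls against cholinergic and 62 against GABAergic neurons. Leaving out each library gave 614 to 2349, 338 to 4343, 3198 to 6587, 2192 to 3541, 435 to 1652, 117 to 154, 389 to 588 and 171 to 268 calls in the order above.

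In NSCs against neurons at stage 17, *kay* ran from -0.71 to 0.0126 and *puc* from -0.95 to 0.0598 over libraries left out, and *puc* was 0.10 with marker UMIs. In the interaction, thinning gave 1.11 for *Hr38*, 0.19 for *sr* and -1.69 for *Jra* (with all UMIs 0.28), and marker UMIs -0.62 for *Jra*. In glutamatergic over cholinergic neurons, *puc* ran from -0.26 to 0.0335 over libraries left out and was 0.0147 with marker UMIs, *sr* was 0.0677 in thinned cells and *kay* -0.29 without the *twit* cluster. In glutamatergic over GABAergic neurons, *puc* ran from -0.0231 to 0.47 over libraries left out and was -0.10 without the *twit* cluster, where *kay* was -0.17, and *sr* was 0.62 in thinned cells.

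The mean share of neurons with *Hr38* was 23.7% at 24 h ALH and 9.39% at stage 17 with 1000 UMIs drawn per cell, 35.5% and 18.8% with 2000, and 72% and 36.9% without thinning. For *sr* it was 22.4% and 5.52%, 33.3% and 9.59%, and 67.5% and 28.7%.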
